A study of Mus musculus with 43 samples.

Results

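The lipogenic genes described here are 10 genes of fatty acid synthesis and its control, Srebf1, Thrsp, Acly, Acss2, Me1, Acaca, Fasn, Elovl6, Scd1 and Scd2, among the 42349 entries of a gene expression table. They were chosen by name, and earlier results of the same data, in which Elovl6 and Thrsp differed from control in skeletal muscle and white adipose tissue (WAT), were known when the list was drawn up. All 10 were found: 8 have an entry of their own, whereas Scd2 shares its entry with the microRNA gene Mir5114 and Srebf1 with Mir6922, so reads of those microRNA genes could not be separated from them. Differences of the members in skeletal muscle and WAT are therefore given as a description, and tests of the members are printed for liver and brain only.

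Poly-A RNA was sequenced on an Ion Proton instrument from female mice aged 15 months, in brain, inguinal WAT, liver and skeletal muscle. Wild type mice (WT, Irs1+/+) and mice with a global knockout (KO, Irs1-/-) of insulin receptor substrate 1, which passes the signal of the insulin receptor into the cell, were either fed ad libitum (AL) or held on 30% dietary restriction (DR) for 12 months. The resulting 4 groups in each tissue, WTAL, KOAL, WTDR and KODR, comprised 43 libraries, with 2 libraries in every WTAL group and in WTDR WAT and 3 in each other group. The table holds 1 FPKM value (a fragment count scaled to transcript length and library size) for each gene and group with a 95% interval, and no value of a single library. The share of all entries whose intervals did not overlap was not counted, so overlap is given below as a description and not as a test. All mice ate the same high-carbohydrate chow, and DR mice received their ration once a day in the late afternoon. The hour of death and the time since the last meal were not given in the sources used here.

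Whole-table checks bear on how the groups can be read. In only 1 of 8 pairs of groups was the FPKM of Irs1 below WT under the KO label, at 1.62 to 6.56 in the WT groups and 2.58 to 6.31 in the groups labelled KO. Whole-gene values of the targeted gene thus did not show the loss that the labels name. In brain, Irs1 was called higher in KODR (4.14, interval 2.41 to 5.87) than in WTDR (1.62, interval 1.03 to 2.21) by the test described below. That log2 difference was 1.35 (SE 0.40), beside a median of 0.23 over all entries, of which 1.16% were called in either direction. It did not pass at an FDR of 5%. No other pair was called, including the 1 below WT, which was WAT under DR (2.58 in KODR and 6.56 in WTDR). The table holds 1 value for the whole gene and none by exon, so that reads from any part of Irs1 that the knockout leaves in place are counted with the rest, and the deleted part itself was not checked. The genotype is named below as labelled. Summed markers of hepatocytes, skeletal muscle fibres, neurons and adipocytes were each highest in their own tissue. Markers of other cells differed between the groups of a tissue, and the lists that differed most are given with the results of that tissue. A bulk library cannot tell fewer cells of a type from less RNA per cell.

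De novo lipogenesis turns surplus carbohydrate into fatty acids, mainly in liver and adipose tissue. ATP citrate lyase (Acly) and acetyl-CoA synthetase 2 (Acss2) make acetyl-CoA from citrate and acetate, malic enzyme 1 (Me1) supplies NADPH, acetyl-CoA carboxylase alpha (Acaca) makes malonyl-CoA, and fatty acid synthase (Fasn) builds palmitate. The elongase Elovl6 lengthens palmitate, and the stearoyl-CoA desaturases Scd1 and Scd2 introduce a double bond. Srebf1 encodes the transcription factor SREBP1, through which insulin raises the transcription of these enzymes, and Thrsp encodes thyroid hormone responsive protein (Spot 14), a small protein of lipogenic tissues that responds to thyroid hormone and carbohydrate.

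The genes lie apart on the mouse genome (GRCm38, GENCODE annotation). Elovl6 occupies chromosome 3 from 129532355 to 129638495 on the plus strand and Thrsp chromosome 7 from 97412938 to 97417730 on the minus strand. Fasn (120805846 to 120824547), Acly (100476353 to 100528000), Acaca (84129672 to 84401651) and Srebf1 (60199089 to 60222581) are spread over chromosome 11. Scd2 (44293674 to 44306864) and Scd1 (44394455 to 44407879) are near neighbours on chromosome 19. Acss2 lies on chromosome 2 from 155517948 to 155585724 and Me1 on chromosome 9 from 86581371 to 86695953.

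Promoter windows are shown for Elovl6 and Thrsp, whose differences in WAT and skeletal muscle were known when the list was drawn up, and for Fasn, the central enzyme, because all members lay above WTAL in each of the other WAT groups. The windows come from RefSeq (GRCm38.p6), run from 250 bases before to 50 bases after the annotated start, are printed in the direction of the gene, and have in capitals each match to the CCAAT box (letters CCAAT) on either strand. The Elovl6 window is chr3:129532136-129532435 on the plus strand, the Thrsp window chr7:97417501-97417800 on the minus strand and the Fasn window chr11:120824498-120824797 on the minus strand.
Elovl6: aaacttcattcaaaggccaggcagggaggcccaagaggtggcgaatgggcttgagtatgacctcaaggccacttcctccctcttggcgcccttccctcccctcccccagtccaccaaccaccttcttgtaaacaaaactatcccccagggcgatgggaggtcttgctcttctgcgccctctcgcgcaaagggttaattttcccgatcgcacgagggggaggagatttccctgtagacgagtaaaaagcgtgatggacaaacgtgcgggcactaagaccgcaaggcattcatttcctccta
Thrsp: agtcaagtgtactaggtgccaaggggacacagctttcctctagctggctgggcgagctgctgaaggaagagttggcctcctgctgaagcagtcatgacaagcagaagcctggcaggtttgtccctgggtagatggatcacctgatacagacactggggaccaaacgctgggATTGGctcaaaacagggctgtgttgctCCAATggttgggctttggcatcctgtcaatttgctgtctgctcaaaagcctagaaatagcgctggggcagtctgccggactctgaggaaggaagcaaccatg
Fasn: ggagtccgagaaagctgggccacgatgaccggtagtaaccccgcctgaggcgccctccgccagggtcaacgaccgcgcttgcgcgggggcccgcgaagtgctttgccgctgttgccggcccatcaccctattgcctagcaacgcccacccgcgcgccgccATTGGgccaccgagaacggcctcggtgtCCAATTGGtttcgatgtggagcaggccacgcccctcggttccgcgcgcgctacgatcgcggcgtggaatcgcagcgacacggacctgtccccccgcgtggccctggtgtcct

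In the Fasn window the matches on opposite strands overlap in 1 place, read as CCAATTGG, with a further match upstream, and the Thrsp window holds 2 separate matches. The Elovl6 window holds none. Windows were given for 8 of the 10 members, 11 windows in all, and none for Scd1 and Scd2. CCAAT was found in 7 of the 11 windows, which belong to 6 genes, and in 37.4% of all 32851 windows in the RefSeq table. The GC box (GGGCGG, both strands) was found in 5 of the 11 windows, which belong to Acss2, Me1, Srebf1 and Acly, and in 35.7% of all windows. No member window held the sterol regulatory element (TCACNCCAC), found in 1.24% of all windows, the E-box CACGTG, found in 7.15%, or a direct repeat of AGGTCA spaced by 4 bases, found in 0.0152%. Such matches describe the letters of these windows and nothing beyond them.

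In WTAL mice, WAT had the highest FPKM of 6 of the 10 genes: Srebf1, Thrsp, Acly, Acaca, Fasn and Scd1. Scd1 was far above every other member there, at 3943 FPKM, and made up 81.7% of the summed FPKM of the 10 genes. Its FPKM was 260 in skeletal muscle, 239 in liver and 56.2 in brain, and of these neighbouring values only WAT and skeletal muscle had intervals that did not overlap. Scd2 was highest in brain instead. Its FPKM was 364 in brain, 28.6 in WAT, 4.54 in skeletal muscle and 1.05 in liver, and the intervals of WAT and skeletal muscle did not overlap, whereas those of brain and WAT did. In brain Scd2 was the leading desaturase gene, with 5.55 to 7.59 FPKM of Scd2 for each FPKM of Scd1 in the 4 groups, whereas Scd1 exceeded Scd2 in each group of liver, skeletal muscle and WAT.

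For the remaining genes the order of tissues in WTAL mice was mostly within the intervals. Thrsp had an FPKM of 152 in WAT, above 57.8 in liver with no overlap, then 30.0 in brain and 15.4 in skeletal muscle. Fasn had 429 in WAT, 135 in liver, 80.8 in brain and 35.2 in skeletal muscle, each overlapping its neighbour. Elovl6 was low everywhere, at 7.72 in brain, 7.62 in liver, 3.44 in WAT and 1.76 in skeletal muscle. Me1 was about level between skeletal muscle (70.3) and WAT (67.2), with 32.5 in liver and 10.3 in brain, and Acss2 ranged only from 13.8 in brain to 24.0 in liver.

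**Figure D1:**
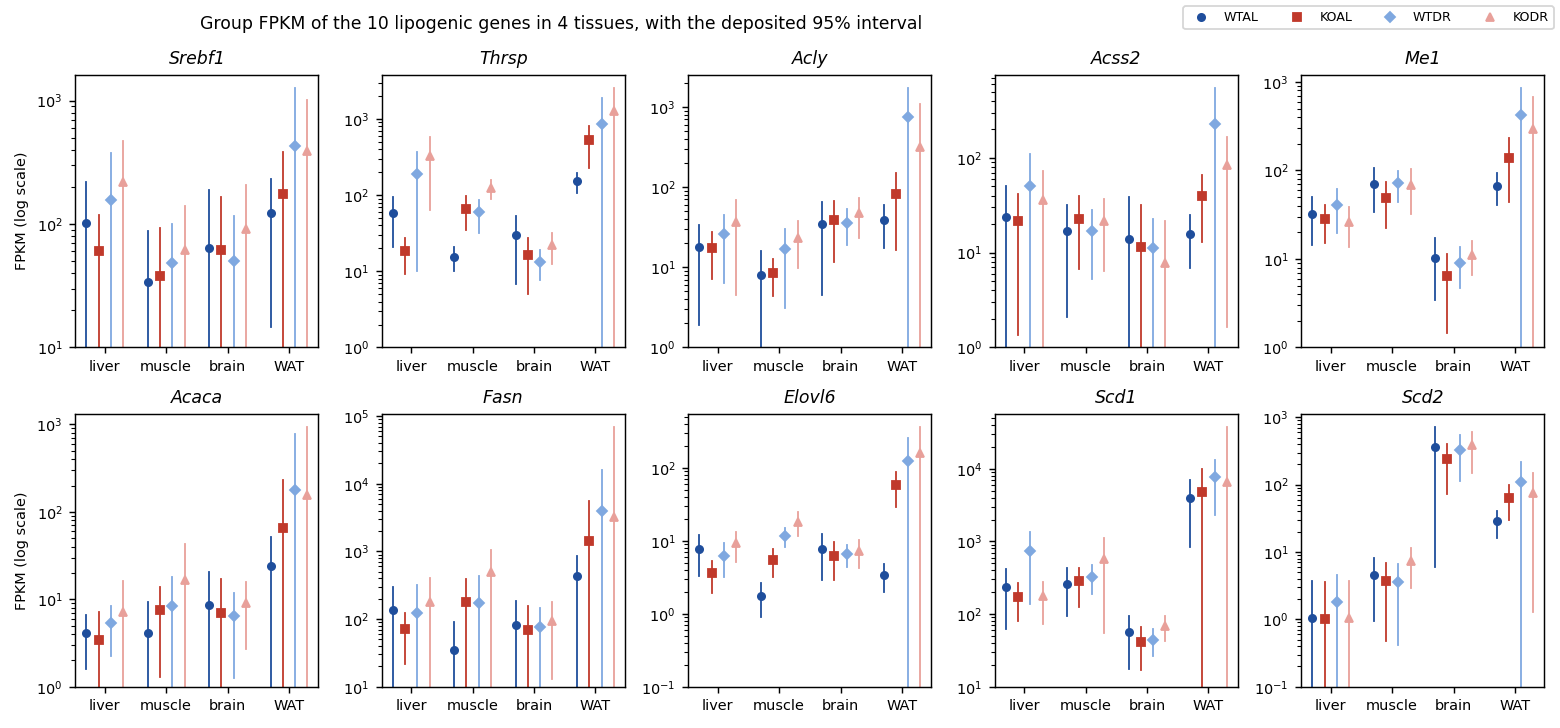
FPKM (log axis) of each of the 10 lipogenic genes by tissue, with 1 point for each of the groups WTAL, KOAL, WTDR and KODR and a bar for the deposited 95% interval; a bar that meets the lower edge continues below it, in most cases to 0. The highest points of 9 genes are in WAT of WTDR or KODR mice, and those of Scd2 are in brain.

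WAT of WTAL mice had the lowest FPKM of all 10 genes among the 4 WAT groups. Levels were intermediate in the group labelled KOAL, and each gene was higher again in WTDR and in the group labelled KODR, so the summed FPKM of the 10 genes was 4823 in WTAL, 7419 in KOAL, 14807 in WTDR and 12564 in KODR. These 3 comparisons share the 2 WTAL libraries, and the WTDR values, the highest of the 4 sums, rest on 2 libraries as well. The intervals were widest where the values were highest: their lower bound was 0 for 2 genes in WTAL, 4 in KOAL, 9 in WTDR and 8 in KODR.

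Among the regulators, Thrsp had an FPKM of 152 in WTAL WAT, 523 in KOAL, 858 in WTDR and 1276 in KODR. The intervals of WTAL (108 to 196) and KOAL (228 to 818) did not overlap, whereas those of WTDR and KODR reached down to 0. The log2 difference from WTAL was 1.79 (SE 0.46) in KOAL, 2.50 (SE 0.91) in WTDR and 3.07 (SE 0.77) in KODR. Srebf1, which encodes the factor that drives the pathway, moved less, with an FPKM of 122 in WTAL, 174 in KOAL, 425 in WTDR and 388 in KODR and overlapping intervals. Its log2 difference from WTAL was 1.80 in WTDR and 1.67 in KODR.

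Among the enzymes that supply acetyl-CoA and NADPH, the highest WAT value was that of WTDR for each gene. Acly had an FPKM of 38.4 in WTAL, 83.1 in KOAL, 748 in WTDR and 319 in KODR, and Acss2, which uses acetate, had 15.9, 39.9, 229 and 83.4 in the same order. Their log2 differences between WTDR and WTAL were 4.28 (SE 1.04) and 3.85 (SE 1.10). Me1 had an FPKM of 67.2 in WTAL, 138 in KOAL, 424 in WTDR and 291 in KODR, or a log2 difference of 2.66 in WTDR. The log2 differences of these genes were smaller in KOAL, at 1.11 for Acly, 1.33 for Acss2 and 1.04 for Me1, and lay between in KODR, at 3.05, 2.39 and 2.11.

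The enzymes of the synthetic step followed the same order of groups. Acaca had an FPKM of 23.8 in WTAL WAT, 65.3 in KOAL, 176 in WTDR and 155 in KODR. Fasn had 429, 1440, 3904 and 3218, but its interval ran from 0 in each of the 4 groups and up to 69420 in KODR, so its differences are poorly measured. The log2 difference of Fasn from WTAL was 1.75 in KOAL, 3.19 in WTDR and 2.91 in KODR, and that of Acaca was 1.46, 2.89 and 2.71.

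Elovl6 differed most of the 10 genes in each WAT comparison with WTAL. Its FPKM was 3.44 in WTAL WAT (interval 2.02 to 4.85), 58.9 in KOAL (28.9 to 88.8), 126 in WTDR (0 to 255) and 160 in KODR (0 to 365). These values were 17.1-fold, 36.6-fold and 46.7-fold that of WTAL, with log2 differences of 4.10 (SE 0.47), 5.19 (SE 0.80) and 5.54 (SE 0.97). WAT of WTAL mice held less Elovl6 than liver, with a ratio of WAT to liver of 0.451, and the same ratio was 16.4 in KOAL, 20.1 in WTDR and 17.2 in KODR.

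Scd1 differed least of the 10 genes in these comparisons. It had an FPKM of 3943 in WTAL WAT, 4832 in KOAL, 7809 in WTDR and 6599 in KODR, and its log2 difference from WTAL stayed below 1 in every group. As the other members were higher, its share of the summed FPKM was 65.1% in KOAL, 52.7% in WTDR and 52.5% in KODR. Scd2, the minor desaturase of WAT, had 28.6, 64.3, 108 and 74.3 FPKM, with log2 differences of 1.17 in KOAL, 1.92 in WTDR and 1.38 in KODR.

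All 10 log2 differences in WAT were positive in each of the 3 comparisons with WTAL, with medians of 1.25, 2.77 and 2.55, beside medians of -0.06, -0.17 and -0.04 over all entries.

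Within the DR groups and within the groups labelled KO, the members of WAT differed less. KODR against WTDR had 2 positive and 8 negative log2 differences and a median of -0.26, and only Acss2 (-1.46) and Acly (-1.23) reached a size of 1. KODR against KOAL had 10 positive differences with a median of 1.16, from 0.21 for Scd2 to 1.94 for Acly. Elovl6 (1.45), Thrsp (1.29), Acaca (1.25), Fasn (1.16), Srebf1 (1.16), Me1 (1.08) and Acss2 (1.06) lay between. The estimated step from AL to DR was smaller in mice labelled KO than in WT mice for each of the 10 genes, with a median difference of the differences of -1.68. It was -3.75 (SE 1.28) for Elovl6, -2.79 (SE 1.39) for Acss2, -2.35 (SE 2.13) for Acly and -2.03 (SE 15.16) for Fasn. For Scd2 (-1.71, SE 1.13), Acaca (-1.64, SE 4.85), Me1 (-1.58, SE 1.35) and Thrsp (-1.21, SE 1.24) it was closer to 0. For Fasn, Acaca, Thrsp, Srebf1 and Scd1 the SE exceeded the size of the difference, so these are poorly measured.

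Markers of other cell types differed in WAT as well. They were read by the two-sided Wald test at a false discovery rate (FDR) of 10%, with p-values adjusted over all entries of a comparison, in which 1.04%, 0.261% and 0.733% of all tested entries were called higher in KOAL, WTDR and KODR than in WTAL. The summed FPKM of 7 adipocyte markers was 23950 in WTAL, 16049 in KOAL, 27795 in WTDR and 20378 in KODR, and no adipocyte marker was called in any comparison with WTAL. Leptin (Lep), an adipocyte hormone, had an FPKM of 616 in WTAL, 222 in KOAL, 158 in WTDR and 260 in KODR. Epithelial markers summed to 16.8 in WTAL, 127 in KOAL, 25.7 in WTDR and 98.6 in KODR, with the milk protein genes Csn2, Csn3 and Wap at 0 in WTAL and at most 0.0338 elsewhere. Skeletal muscle fibre markers summed to 525, 1008, 369 and 635. Most of the WTAL sum was Acta1, at 507 FPKM in WTAL, 337 in KOAL, 112 in WTDR and 327 in KODR. The other 6 markers were each lowest in WTAL, which these sums do not show. Over all 7, the median log2 difference from WTAL was 4.93 in KOAL, 4.27 in WTDR and 4.10 in KODR. Of the 7, 6, 4 and 5 were called higher in KOAL, WTDR and KODR than in WTAL. Brown and beige adipocyte markers summed to 50.5, 91.1, 135 and 111, with none of 4 called in these comparisons. Macrophage markers summed to 563, 280, 201 and 221. Hepatocyte markers summed to 689 in WTAL, 652 in KOAL, 386 in WTDR and 99.7 in KODR. Of these, 4 of 7 were called lower in KODR than in WTAL, where 80 of all 15271 tested entries were. Red blood cell markers summed to 6863, 4297, 12269 and 21030, with none of 5 called. The part of these cells in the lipogenic differences was not tested.

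**Figure D2:**
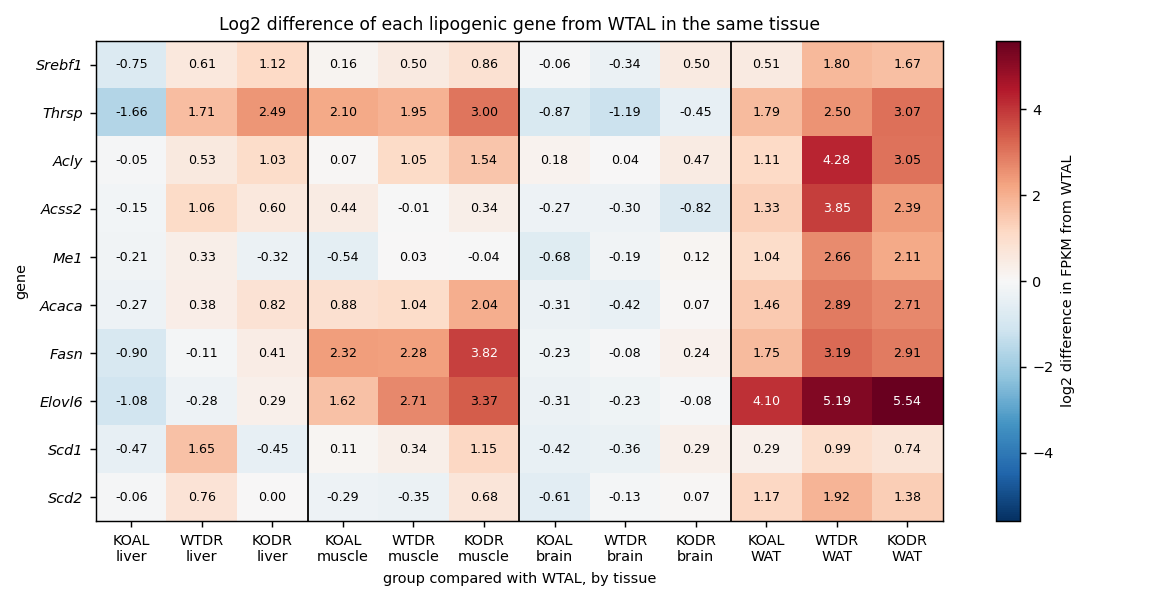
Log2 difference in FPKM of each lipogenic gene (rows) between the group named under each column and WTAL of the same tissue; red is higher and blue lower than WTAL, and each cell prints its value. The WAT columns are red throughout, up to 5.54 for Elovl6 in KODR, the KOAL column of liver is blue throughout, and the brain columns stay between -1.19 and 0.50.

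In skeletal muscle, Elovl6 and Thrsp, whose differences there were known beforehand, lay above WTAL in each of the other groups with no overlap of intervals. Elovl6 had an FPKM of 1.76 in WTAL (interval 0.896 to 2.63), 5.44 in KOAL (3.17 to 7.70), 11.5 in WTDR (8.13 to 14.9) and 18.3 in KODR (11.8 to 24.7). WTDR also lay above KOAL with no overlap. The log2 difference from WTAL was 1.62 (SE 0.47) in KOAL, 2.71 (SE 0.41) in WTDR and 3.37 (SE 0.44) in KODR. Thrsp had an FPKM of 15.4 in WTAL (10.2 to 20.7), 66.2 in KOAL (34.4 to 98.0), 59.7 in WTDR (32.0 to 87.4) and 124 in KODR (88.4 to 159). Its values in KOAL and WTDR lay within each other's intervals, and the log2 differences from WTAL were 2.10, 1.95 and 3.00.

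Fasn was also lowest in WTAL and highest in KODR in skeletal muscle, with an FPKM of 35.2 in WTAL, 176 in KOAL, 172 in WTDR and 497 in KODR and every interval starting at 0. Its log2 difference from WTAL was 2.32 (SE 1.44) in KOAL, 2.28 (SE 1.58) in WTDR and 3.82 (SE 1.39) in KODR. Acaca had 4.07, 7.50, 8.36 and 16.8, and Acly had 8.06, 8.44, 16.7 and 23.5. In KODR these were log2 differences of 2.04 for Acaca and 1.54 for Acly, and in WTDR of 1.04 and 1.05. Srebf1 covered a narrower range, from 33.8 FPKM in WTAL over 37.9 in KOAL and 48.0 in WTDR to 61.3 in KODR. Me1 (48.2 to 71.6), Acss2 (16.8 to 22.9) and Scd2 (3.55 to 7.27) had overlapping intervals in all groups. Scd1 had 260, 281, 329 and 577, a log2 difference of 1.15 in KODR.

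The median log2 difference of the members from WTAL in skeletal muscle was 0.30 in KOAL, 0.77 in WTDR and 1.35 in KODR, beside -0.05, -0.06 and -0.04 over all entries. Against WTDR, KODR had 9 positive differences and a median of 0.74, with Fasn at 1.54, Thrsp at 1.05, Scd2 at 1.03 and Acaca at 1.01. Against KOAL, the largest differences of KODR were 1.75 (SE 0.39) for Elovl6, 1.48 for Acly with Fasn slightly above it, 1.16 for Acaca and 1.04 for Scd1. The DR step had a median of 0.77 in WT mice and of 1.00 in mice labelled KO, and the median of the differences between these steps was 0.16, from -1.05 for Thrsp to 1.32 for Scd2.

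Skeletal muscle libraries also differed in markers of other tissues. Adipocyte markers summed to 1796 FPKM in WTAL, 1989 in KOAL, 602 in WTDR and 2674 in KODR. In WAT of the same groups they summed to 23950, 16049, 27795 and 20378. Hepatocyte markers summed to 20.5, 47.3, 2542 and 107, and 7 of 7 were called higher in WTDR than in WTAL, led by albumin (Alb) at 987 FPKM. In WTDR mice, Elovl6 (11.5 and 6.27 FPKM), Fasn (172 and 125), Acaca, Me1 and Scd2 were higher in skeletal muscle than in liver. Thrsp (59.7 and 189), Scd1 (329 and 749), Srebf1, Acly and Acss2 were lower in skeletal muscle than in liver. Markers of brown and beige adipocytes, a fat cell type with strong lipogenesis, summed to 644, 1339, 969 and 1109, and 2 of 4 were called higher in KOAL than in WTAL. Most of each sum was Cox8b, at 577, 1091, 853 and 987 FPKM. Cox8b had only 31.7 to 67.1 FPKM in the WAT groups, so these sums do not measure brown fat cells in skeletal muscle. Ucp1, the uncoupling protein that defines brown fat, had an FPKM of 0.0897 in WTAL, 66.9 in KOAL, 0.230 in WTDR and 2.05 in KODR. Cidea had 2.16, 79.1, 2.07 and 22.8. Red blood cell markers summed to 950 in WTAL, 11582 in KOAL, 1553 in WTDR and 20283 in KODR, and 4 of 5 in KOAL and 2 of 5 in KODR were called higher than in WTAL. Of all entries in skeletal muscle, 0.454%, 0.795% and 0.527% were called higher in KOAL, WTDR and KODR than in WTAL. The part of these cells in the lipogenic differences was not tested.

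**Figure D3:**
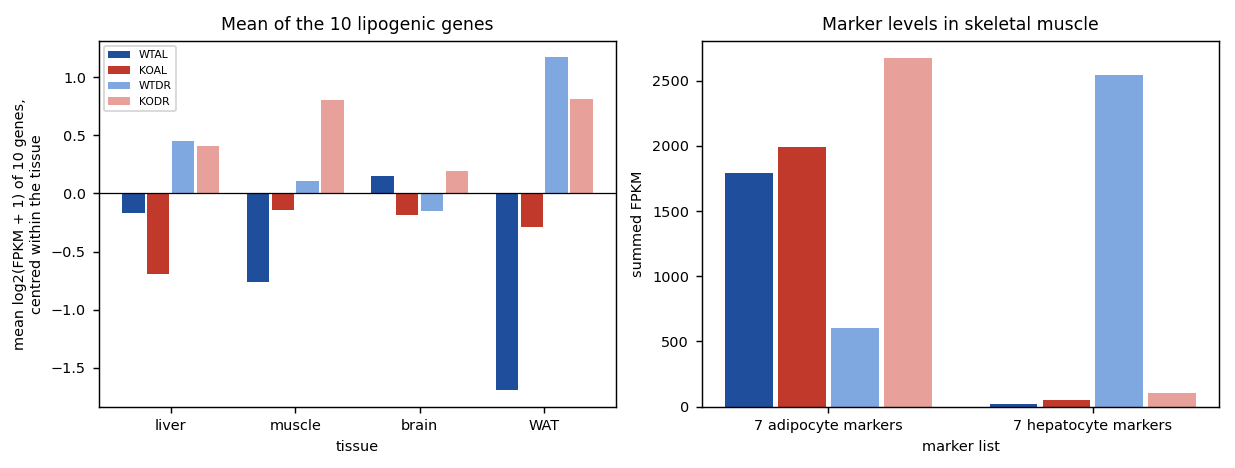
Left, mean log2(FPKM + 1) of the 10 lipogenic genes in each group after subtraction of the tissue mean, where bars above 0 are groups above the mean of their tissue. WAT runs from -1.69 in WTAL to 1.17 in WTDR and brain only from -0.19 to 0.19. Right, summed FPKM of 7 adipocyte and 7 hepatocyte markers in the skeletal muscle groups, where WTDR has the fewest adipocyte (602) and the most hepatocyte (2542) marker reads.

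Liver, the classical site of lipogenesis in rodents, gave a different pattern for the group labelled KOAL. All 10 genes were lower in KOAL than in WTAL, with a median log2 difference of -0.37 beside 0.16 over all entries, although none passed the two-sided Wald test at FDR 10%. Unadjusted p-values under 0.05 were obtained for 2 of the 10 genes and for 277 of all 13614 entries, of which 0.316% were called. Thrsp had an FPKM of 57.8 in WTAL and 18.3 in KOAL (interval 9.19 to 27.3), a log2 difference of -1.66 (SE 0.59, 95% interval -2.81 to -0.51). Elovl6 had 7.62 and 3.60, a log2 difference of -1.08 (SE 0.53, 95% interval -2.12 to -0.04). In WAT and skeletal muscle the same genes had positive differences between these groups, but differences between tissues were not tested.

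Thrsp had the largest difference between DR and AL feeding in liver in both genotypes. Its FPKM was 57.8 in WTAL, 18.3 in KOAL, 189 in WTDR (interval 9.98 to 369) and 324 in KODR (63.0 to 585). In the group labelled KODR it rose 17.8-fold over KOAL, with a log2 difference of 4.15 (SE 0.68, 95% interval 2.81 to 5.49) that passed the test at FDR 10%, and the FPKM intervals did not overlap. This was the only call among the members in liver, 1 of 10, while 0.276% of all entries were called higher in that comparison. Against WTAL, the log2 difference of Thrsp was 1.71 (SE 0.83) in WTDR and 2.49 (SE 0.74) in KODR, neither of which passed. The other members with a difference of at least 1 between KODR and WTAL were Srebf1 (1.12) and Acly (1.03). For Thrsp the DR step was larger by 2.44 on the log2 scale in mice labelled KO than in WT mice (SE 1.07, 95% interval 0.34 to 4.54), which did not pass at FDR 10%, and 0.0502% of all entries were called higher for that difference. The same difference of the steps was 1.65 (SE 0.72) for Elovl6, 1.41 for Fasn, 1.26 for Srebf1 and -1.62 for Scd1, none of which passed.

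The other genes of liver had the same direction between KODR and KOAL in most cases. Of the 10 differences 9 were positive, with a median of 1.09 beside -0.03 over all entries. Besides Thrsp, Srebf1 (60.7 FPKM in KOAL, 221 in KODR), Elovl6 (3.60 and 9.30), Fasn (72.5 and 179), Acly (17.3 and 36.7) and Acaca (3.40 and 7.21) had log2 differences of at least 1, at 1.87 for Srebf1, 1.37 for Elovl6 (SE 0.46, 95% interval 0.46 to 2.28), 1.31 for Fasn, 1.09 for Acly and 1.08 for Acaca. None of these passed the test. Me1 was the exception, with 28.1 in KOAL and 26.1 in KODR.

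In WT mice Scd1 was close to Thrsp in the size of the DR step in liver. Between WTDR and WTAL 8 of 10 log2 differences were positive with a median of 0.57, none was called, and 0.236% of all entries were. Unadjusted p-values under 0.05 were obtained for 2 members and 394 of all entries. Scd1 had an FPKM of 239 in WTAL (interval 62.5 to 415), 172 in KOAL, 749 in WTDR (137 to 1361) and 175 in KODR. Its highest value was that of WTDR, with overlapping intervals, a log2 difference of 1.65 (SE 0.79) from WTAL and one of -2.10 (SE 0.72) in KODR against WTDR, neither of which passed. Acss2 had 24.0, 21.7, 50.0 and 36.3, a log2 difference of 1.06 in WTDR that the test did not call. Scd1 made up 55.5% of the summed FPKM of the 10 genes in WTDR liver and 17.2% in KODR liver.

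KODR against WTAL and KODR against WTDR gave no call among the members of liver. The medians were 0.50 and 0.47, and 0.272% and 0.288% of all entries were called. Unadjusted p-values under 0.05 were obtained for 1 member in each comparison and for 419 and 241 of all entries. Scd2 was near the lowest measurable level in each liver group, at 1.01 to 1.79 FPKM with intervals from 0. The summed FPKM of 7 hepatocyte markers was 56721 in WTAL, 115481 in KOAL, 129809 in WTDR and 139273 in KODR, so that the WTAL liver libraries, to which 3 of the comparisons refer, had the lowest values. Red blood cell markers summed to 2681 in WTAL, 13569 in KOAL, 3469 in WTDR and 12047 in KODR. Skeletal muscle fibre markers summed to 2.44, 74.1, 10.4 and 27.8, and no marker of these 3 lists was called in a liver comparison. The part of these differences in the lipogenic values was not tested.

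**Figure D4:**
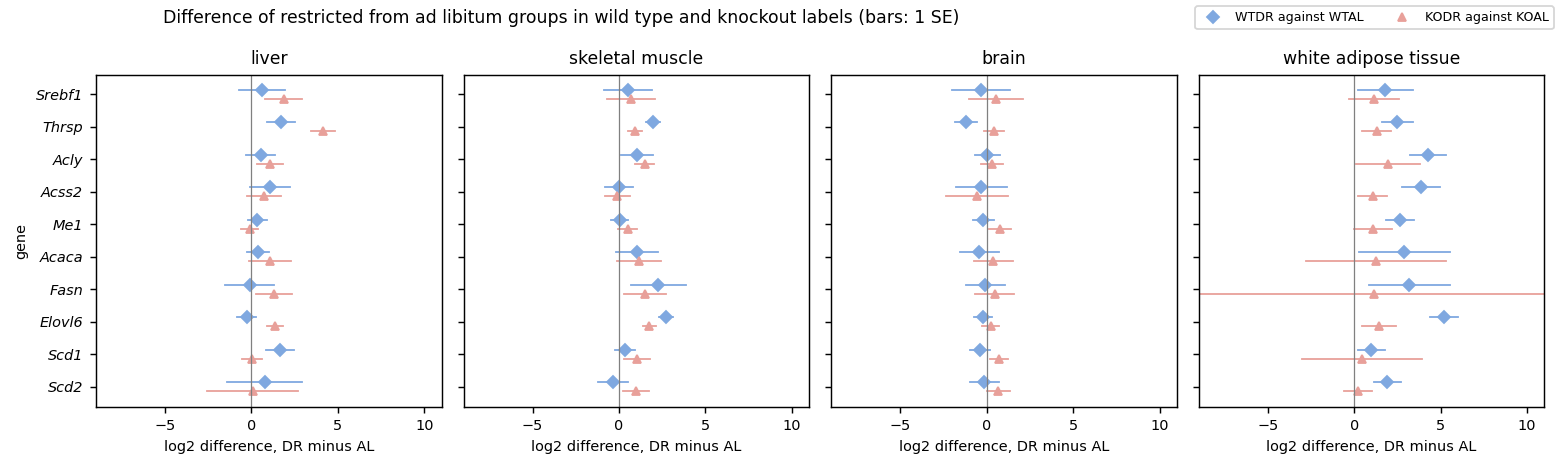
Log2 difference of DR from AL feeding for each lipogenic gene in the 4 tissues, in WT mice (WTDR against WTAL, diamonds) and in mice labelled KO (KODR against KOAL, triangles), with bars of 1 SE; the bar of Fasn in WAT runs off the axis. In WAT every diamond lies to the right of its triangle, in liver the triangle of Thrsp lies at 4.15 and its diamond at 1.71, and in brain the symbols lie around 0.

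No member was called in any comparison in brain. Scd2 (238 to 382 FPKM), Fasn (69.0 to 95.2), Srebf1 (50.3 to 90.4), Scd1 (41.9 to 68.8) and Acly (34.7 to 48.0) were the best expressed members, and the intervals of the 4 groups overlapped for each of them. Elovl6 stayed between 6.22 and 7.72 FPKM, and its log2 difference between WTDR and WTAL was -0.23 with a 95% interval of -1.23 to 0.77, whereas it was 5.19 in WAT. The median log2 difference from WTAL was -0.31 in KOAL, -0.27 in WTDR and 0.09 in KODR, beside 0.13, -0.08 and 0.15 over all entries. No member had an unadjusted p under 0.05 in any comparison by the two-sided Wald test, while 277, 337 and 98 of all entries did in these 3, and 0.203%, 0.224% and 0.105% of entries were called.

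Thrsp was the only brain member with a difference of at least 1 between groups, with an FPKM of 30.0 in WTAL (interval 6.91 to 53.1), 16.4 in KOAL, 13.2 in WTDR (7.59 to 18.8) and 22.0 in KODR. Its log2 difference between WTDR and WTAL was -1.19 (SE 0.63) with a 95% interval of -2.43 to 0.06. It thus pointed downward in brain and upward in the other tissues, where it was 1.71 to 2.50. Oligodendrocyte markers, from the cells that make lipid-rich myelin, summed to 5529 in WTAL, 5642 in KOAL, 2327 in WTDR and 5523 in KODR. Scd2, the leading desaturase gene of brain, had 364, 238, 332 and 382 FPKM in the same groups. Red blood cell markers summed to 1032 in WTAL, 9907 in KOAL, 971 in WTDR and 3475 in KODR, and skeletal muscle fibre markers to 3.51, 41.8, 14.2 and 10.5. Hepatocyte markers, of which transthyretin (Ttr) is also made in the choroid plexus, summed to 170, 51.2, 71.2 and 295. The part of these cells in the brain values was not tested. Against WTDR and KOAL, KODR had medians of 0.37 and 0.45, with 1.16% and 0.365% of all entries called and no member among them. The difference between the DR steps of the genotypes was 1.61 (SE 0.87) for Thrsp and 1.07 (SE 0.77) for Scd1, neither of which passed.

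The precision of the table limited what could be called. In simulated data built on the WTAL values, the SD as a share of the FPKM was not allowed above a set limit. There the test recovered 0 to 1.00% of 2-fold changes and at most 38.5% of 4-fold changes. Of 8-fold changes it recovered 44.0% to 70.0%, depending on the tissue. Entries with an SD above that limit were simulated with less spread than the table gives, so these rates can be too high. These rates were not worked out for the members. In WTAL liver the SD of the members ran from 28.0% of the FPKM for Me1 to 129% for Scd2. In WTAL brain it ran from 31.4% for Elovl6 to 97.4% for Srebf1. How often a member would be called at its own SD was not tested.

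The pathway around the members was read from a list of 52 further genes, of which 51 were in the table. In liver 1 of 47 tested genes was called higher in KODR against KOAL, where 0.276% of all entries were, namely Insig1, which encodes a protein that holds SREBP precursors in the endoplasmic reticulum. Its FPKM was 37.5 in WTAL, 19.9 in KOAL (interval 15.1 to 24.8), 56.7 in WTDR and 79.4 in KODR (58.3 to 101), and it rose in KODR over KOAL by 1.99 on the log2 scale (SE 0.26). Insig1 and Thrsp thus had the same order of the 4 groups in liver. The related Insig2 had 137 FPKM in WTAL, 245 in KOAL, 80.4 in WTDR and 57.8 in KODR, the reverse order, and was not called. The phosphatidate phosphatase gene Lpin1 rose in liver of KODR over WTDR by 2.45 on the log2 scale (SE 0.48), from 8.94 to 48.9 FPKM, where 0.184% of all entries were called higher. The list as a whole had medians between -0.09 and 0.27 in the 5 liver comparisons, beside -0.03 to 0.16 over all entries.

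In WAT the further genes pointed the same way as the members between WTDR and WTAL, where 39 of 47 tested genes had positive log2 differences with a median of 0.67 beside -0.17 over all entries. The 2 called higher, where 0.261% of all entries were, were Agpat2, an acyltransferase of triglyceride assembly with 251 FPKM in WTAL and 2461 in WTDR, and Pdp2, a phosphatase that activates pyruvate dehydrogenase, with 0.886 and 2.53. The enzymes of fatty acid synthesis and precursor supply had positive differences for 11 of 11 tested genes and a median of 1.34, while the 17 regulators had 12 positive and a median of 0.23. In KODR, 38 of 47 differences from WTAL were positive, and Elovl3, an elongase of saturated fatty acids, was called higher with 14.7 FPKM against 0.123 in WTAL, as was Pdp2 with 2.24, where 0.733% of all entries were. Elovl3 was also called higher in KODR than in KOAL (0.692), a comparison in which 0.289% of all entries were. In KOAL, 31 of 47 were positive with a median of 0.24, and Pdp2 alone was called, at 1.74 FPKM, where 1.04% of all entries were.

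In skeletal muscle the further genes moved little between WTDR and WTAL, with 23 of 47 positive and a median of -0.02. In KODR against WTAL, 32 of 48 were positive with a median of 0.37, and the mitochondrial citrate carrier gene Slc25a1, which exports the citrate that Acly cleaves, was called higher, where 0.527% of all entries were, with 8.21 FPKM in WTAL, 21.7 in KOAL, 19.2 in WTDR and 63.0 in KODR. Pdp2 was called higher in KOAL (3.91 FPKM) and WTDR (2.70) than in WTAL (2.03), where 0.454% and 0.795% of all entries were, and lower in KODR (2.23) than in KOAL, where 0.286% were. Against WTDR, KODR had Elovl3 (2.09 and 0.266), Pparg (21.3 and 4.22) and Lpin1 (76.0 and 42.6) called higher and Pdp2 (2.23 and 2.70) called lower, where 0.884% of all entries were called higher and 1.35% lower. Pparg, the master regulator of adipocytes, was lowest in WTDR (4.22), and adipocyte markers were lowest in the same group. In brain none of the 47 to 49 tested genes was called in the 5 comparisons.

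The entries whose pattern over the 16 groups was most like the mean of the 10 members were sought among 8878 entries, on log2(FPKM + 1) after subtraction of each tissue's mean. The mean of the members was lowest in WTAL WAT (-1.69) and highest in WTDR WAT (1.17), and the WAT groups held 68.9% of its squared deviations. The most alike were Pmvk, an enzyme of the mevalonate pathway of cholesterol synthesis (r = 0.91), and Slc25a1, Nudt7 and Mea1 (each r = 0.90). Slc25a1 had an FPKM of 138 in WTAL WAT, 243 in KOAL, 1049 in WTDR and 858 in KODR, and Pmvk had 16.7, 33.7, 97.1 and 96.9. They were followed by Bhlhe40, Rdh11, Fn3k and Gm6166 (each r = 0.87), then by the vitamin transporter gene Slc5a6 and the cytochrome gene Cyb5b (each r = 0.86). Among the members themselves r with that mean ran from 0.63 for Scd1 to 0.98 for Acaca, each being part of it. These correlations describe 16 group values from shared mice and libraries, without a test. Over the 12 groups without WAT, 2 of the 10 most alike entries, Fn3k and Gm6166, were again among the 10, so the list rests largely on the WAT groups.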

How the data were processed

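Poly-A RNA of 43 libraries was measured in 16 groups, taken from the genotype, diet and tissue labels. The authors trimmed reads with cutadapt 1.5 and sickle, aligned them to GRCm38 with BBmap in repeated rounds on excised stretches, and ran Cuffdiff 2.2.1 with multi-read correction and geometric normalisation. Their deposited FPKM table has 1 pooled value per gene and group, with a 95% interval. Depth is unknown, and no replicate SD can be given, since the deposited FPKM values are not per library.

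For each comparison, a two-sided Wald test was applied to the log2 ratio of FPKM, taking as SD the upper interval width divided by 2, a normal reference and Benjamini-Hochberg adjustment at FDR 10% over all entries with both groups above 0 and at least 1 FPKM in 1 of them (Python 3.11.15, scipy 1.17.1, statsmodels 0.14.6). Calls at this FDR are printed without p-values, which are approximate with 2 to 3 libraries behind each interval. The authors give 2 WTAL mice and 3 mice in each other group as the source of the RNA. Which library came from which mouse was not given in the sources used here. The difference of differences is KODR against KOAL minus WTDR against WTAL. The test was checked on simulated data with 200 changed genes, in which the SD as a share of the FPKM had an upper limit.

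The members and gene lists were chosen with earlier results of these data known. All member levels are given or summarised, and a log2 difference is printed where it was called or reached 1 in size, with others as ranges or counts; members in skeletal muscle and WAT are given without a test; up to 4 further pathway genes per comparison are named where called, with Irs1 and the 10 entries most like the members. Insig2, Lep, Alb, Ttr, Ucp1, Cidea, Cox8b, Acta1, Mylpf, Ckm, Csn2, Csn3 and Wap were named after their values were seen. Columns of other samples numbered 0. Alternatives were a pseudocount of 1, no filter on low FPKM, centring on the median of all entries, a smaller SD and FDR 5%. RefSeq promoter windows were searched on both strands.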

Additional observations from a re-analysis of the deposited data

How the results depend on the processing

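Members were tested in liver and brain, and their counts of calls depended mainly on how the interval was read. With the SD divided by the square root of the number of libraries, liver calls became 1 lower in KOAL against WTAL, 2 higher in WTDR against WTAL, 1 higher in KODR against WTAL, 1 lower in KODR against WTDR, 3 higher in KODR against KOAL and 2 higher in the difference of differences. In brain they became 2 higher in KODR against WTDR and 1 in the difference of differences. No member changed direction under an alternative test setting except by centring, where the sign turned for Scd2 in liver (KODR against WTAL), Acss2 and Me1 in skeletal muscle (WTDR and KODR against WTAL) and for Fasn, Me1, Acaca, Scd2 and Elovl6 in brain, in 1 comparison each apart from Scd2, which turned in 2. In liver and brain, 23 single differences were called or at least 1 in size, of which only Thrsp in liver between KODR and KOAL was called. None of the 23 gained or lost a call with a pseudocount of 1, without the filter or under centring. With the smaller SD, 10 of the 23 passed that had not passed as reported. In skeletal muscle and WAT, 67 of 69 such differences moved by less than their SE with a pseudocount of 1, which lowered Elovl6 in skeletal muscle to 2.18 in WTDR and 2.80 in KODR. Over all entries, 12 to 313 were called in each of the 24 comparisons and differences of differences as reported, and 41 to 2826 with the smaller SD. Centring left 62 higher and 44 lower calls in KODR against WTDR in brain, in place of 151 and 26, and a pseudocount of 1 gave 42 and 128 in the difference of differences in skeletal muscle, in place of 30 and 24. The list of entries most like the members shared 9 of 10 with a pseudocount of 0.1 and 2 of 10 without WAT. No paired analysis was possible because the table holds 1 pooled value per group, and leaving out a library could not be run for the same reason. The unknown depth and the wide intervals limit calls of low or variable genes.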
